A study of Mus musculus with 4 samples.

Results

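Toll-like receptors are the germline-encoded sensors by which macrophages recognise microbial molecules. The 10 members described here are Tlr1, Tlr2, Tlr4, Tlr5 and Tlr6, which act mainly at the cell surface, and Tlr3, Tlr7, Tlr8, Tlr9 and Tlr13, which act in endosomes. They were chosen by name, and their probes were found through the RefSeq accession that the scanner files give for each probe. All 10 were on the array, with 16 probes, among 22903 genes with a named probe. The signals were measured in cells cultured from mouse bone marrow, with Cy3-labelled total RNA on 4 arrays of 1 slide. Macrophages had been kept for 4 days in M-CSF (25 ng/ml). Osteoclasts, the cells that resorb bone, came from such macrophages after 3 more days in M-CSF (25 ng/ml) and RANKL (50 ng/ml), the cytokine that drives osteoclast formation. Both cell types were made from wild-type mice and from LysM-St18flox mice (called floxed from here on), whose name by convention means a loxP-flanked St18 gene with Cre recombinase driven by the lysozyme M locus, active in myeloid cells.

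Surface receptors bind lipopeptides, lipopolysaccharide and flagellin, and Tlr2 pairs with Tlr1 or Tlr6 to read lipopeptides. Endosomal receptors bind nucleic acids and need the transporter Unc93b1 to reach their compartment. Most of the family signals through the adaptor Myd88, Tlr3 signals through Ticam1, and Tlr4 uses both. The same Traf6 and NF-kappaB route also carries the RANKL signal in osteoclast precursors, and microbial ligands are known both to block early osteoclast formation and to act on committed precursors.

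Each group had 1 array, so no difference has a replicate check, no test was made, and group, slide position and culture cannot be told apart. RANKL and time in culture changed together. How many mice were used, and whether they were pooled, is not stated in the labels. The labels do not say whether the wild-type mice carried Cre. Between 59.0% and 63.2% of the probe spots of an array were well above background and none was saturated. St18 itself had log2 signals, relative to an array's 75th percentile, of 0.30 and 1.55 in wild-type macrophages and osteoclasts and of -1.52 and 1.12 in floxed ones. It was 3.52-fold lower in floxed than in wild-type macrophages and 1.35-fold lower in osteoclasts. Where its probe lies relative to the floxed part is not known here, so the signal does not check the deletion. All 7 osteoclast markers, such as Ctsk and Acp5, were well above background on both osteoclast arrays. Their summed signal, in units of an array's 75th percentile, was 743 and 925 there against 9.47 and 7.14 on the wild-type and floxed macrophage arrays. The 6 macrophage markers were well above background on all 4 arrays.

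The sequences upstream of 4 receptors are shown because these receptors stood at the ends of the range of differences between osteoclasts and macrophages of the wild type: Tlr8, Tlr1 and Tlr13 had the largest, and Tlr9 the smallest. They were chosen after their values were seen. Each is the 250 bases before an annotated start in RefSeq, build GRCm38.p6, read 5′ to 3′ on the gene's strand. Capitals mark the letters GAGGAA, the core bound by the myeloid factor PU.1, or TGANTCA, the AP-1 site, on either strand.
Tlr8, chrX:167264330-167264579, minus strand: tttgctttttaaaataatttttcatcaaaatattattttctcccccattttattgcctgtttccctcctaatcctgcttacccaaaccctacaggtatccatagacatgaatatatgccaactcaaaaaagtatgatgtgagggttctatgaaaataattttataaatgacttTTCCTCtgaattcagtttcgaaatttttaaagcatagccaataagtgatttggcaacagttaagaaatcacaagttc
Tlr1, chr5:64933559-64933808, minus strand: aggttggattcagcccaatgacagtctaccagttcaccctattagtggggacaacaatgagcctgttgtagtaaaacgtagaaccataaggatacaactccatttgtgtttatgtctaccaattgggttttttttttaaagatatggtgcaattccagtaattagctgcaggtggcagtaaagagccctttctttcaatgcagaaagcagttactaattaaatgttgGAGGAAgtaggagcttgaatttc
Tlr13, chrX:106143025-106143274, plus strand: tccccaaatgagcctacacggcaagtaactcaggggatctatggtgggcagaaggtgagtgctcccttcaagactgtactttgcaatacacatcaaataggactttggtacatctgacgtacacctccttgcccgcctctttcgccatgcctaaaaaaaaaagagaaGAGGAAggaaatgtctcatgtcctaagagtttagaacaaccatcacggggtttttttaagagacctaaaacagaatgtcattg
Tlr9, chr9:106222348-106222597, plus strand: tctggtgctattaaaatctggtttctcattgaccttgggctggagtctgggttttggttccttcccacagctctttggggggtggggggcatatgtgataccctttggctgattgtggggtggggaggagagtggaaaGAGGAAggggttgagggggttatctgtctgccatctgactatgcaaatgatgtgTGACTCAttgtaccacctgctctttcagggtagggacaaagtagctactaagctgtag

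The PU.1 core lay 77 bases upstream of the start in Tlr8, 23 in the printed window of Tlr1, 83 in Tlr13 and 112 in Tlr9. The window of the other annotated start of Tlr1, at chr5:64932700-64932949, held 0 matches to any of the motifs searched. For Tlr1 the window with the match is the one printed. Tlr9 alone of the printed windows also held the AP-1 letters, 58 bases upstream. The window table holds 10 windows for 8 members, none for Tlr4 or Tlr7, and 4 of the 10 held the PU.1 core, against 23.3% of all 32851 windows of this length. The 4 with the PU.1 core are the 4 printed. The AP-1 letters were in 6.75% of all windows. The interferon-stimulated element (GAAA, any 2 letters, GAAA) was in 2.98% of all windows and in 1 window of Tlr6, where its matches began 116 and 110 bases upstream and overlapped. The degenerate NF-kappaB site was in 3.9% of all windows and in those of Tlr2 and Tlr3. A match describes letters and not a bound site.

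In osteoclasts the signal of 9 of the 10 receptors was below that of macrophages of the same genotype in both genotypes by more than the gap of 0.40 (log2, median) seen between probes of a receptor. The exception was Tlr9, at -0.17 in the wild type and -0.45 in floxed cells. That gap is a median, and single gaps reached 1.34. A difference past 0.40 is therefore not set apart from disagreement between probes, and Tlr5 in the wild type was at only -0.42. In the wild type 5 of the 10 were at least 2-fold lower, Tlr1 among surface receptors and Tlr3, Tlr7, Tlr8 and Tlr13 among endosomal receptors, and in floxed cells 8 of the 10 were, all but Tlr5 and Tlr9. No receptor was 2-fold higher. With the normexp background correction 3 of the 10 were at least 2-fold lower in the wild type, without Tlr3 (-0.88) and Tlr7 (-0.95). The criterion of 2-fold is one of size and not a test. Of 14734 genes measured in the wild type, 13.0% met it, 7.32% downwards and 5.7% upwards. Of 15575 genes measured in floxed cells, 23.2% met it, 12.2% downwards and 11.0% upwards. The median over the 10 receptors was -1.06 on the log2 scale in the wild type and -1.98 in floxed cells, against 0.00 and -0.02 over all genes measured. The plot of signals by array shows each receptor's descent within a genotype.

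**Figure D1:**
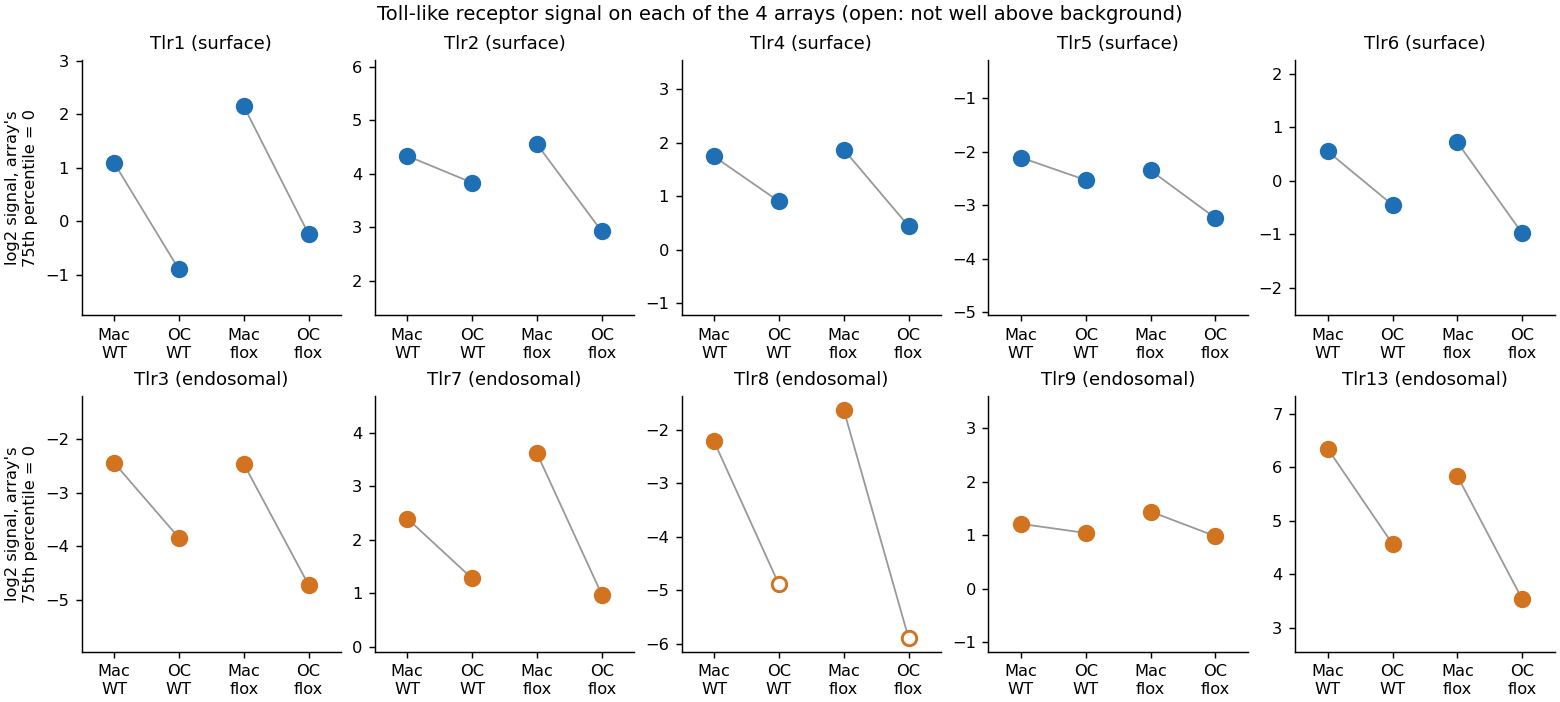
Normalised log2 signal (vertical axis, with 0 at each array's 75th percentile) of the 10 receptors on the 4 arrays, macrophages (Mac) and osteoclasts (OC) of wild-type (WT) and LysM-St18flox (flox) mice. Each point is 1 array, lines join the cell types of a genotype, open points were not well above background, and panels have the same span but different centres. Every line descends from macrophage to osteoclast, least for Tlr9 (1.21 to 1.04 and 1.44 to 0.98).

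Signals are given as log2 relative to the array's 75th percentile, and differences as log2. Levels of different receptors come from different probes and are not compared. As a measure of precision, 5 receptors had another probe well above background on all 4 arrays. Its difference departed from that of the brightest probe by 0.40 (median of 20 pairs of values) and by up to 1.34. Gaps between arrays smaller than 0.40 are therefore not ordered here, and larger ones can still lie within the disagreement of probes. Each probe of a receptor was 1 spot.

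Among surface receptors, Tlr1, the partner of Tlr2 for triacylated lipopeptides, had a signal of 1.09 in macrophages and -0.90 in osteoclasts of the wild type, against 2.15 and -0.24 in floxed macrophages and osteoclasts. Floxed macrophages stood highest and wild-type osteoclasts lowest. Tlr1 was 4.00-fold lower in osteoclasts than in macrophages of the wild type and 5.23-fold lower in floxed cells. It was also 2.08-fold higher in floxed than in wild-type macrophages. In osteoclasts this gap was 1.59-fold, and by the brightest probes the other measured receptors lay between -1.04 and -0.06 in that comparison. The other probes of Tlr4 and Tlr3 gave 0.39 and 0.07 there. The other probe of Tlr1 gave differences of -2.18 and -2.85 between cell types and 1.35 and 0.68 between genotypes, of the same sign in all 4 comparisons.

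Tlr6, the partner of Tlr2 for diacylated lipopeptides, lies next to Tlr1 on chromosome 5, with 0 protein-coding genes between them. Its signal was 0.55 and -0.45 in wild-type macrophages and osteoclasts, and 0.72 and -0.98 in their floxed counterparts. Both macrophage arrays stood above both osteoclast arrays, and the macrophage arrays differed by only 0.17. Tlr6 was 1.99-fold lower in wild-type osteoclasts, just short of the criterion, and 3.24-fold lower in floxed osteoclasts. The difference between genotypes in macrophages was thus 1.06 for Tlr1 and 0.17 for its neighbour.

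Tlr2 itself, the shared chain of both lipopeptide receptors, had a signal of 4.33 in macrophages and 3.83 in osteoclasts of wild-type mice, and of 4.55 and 2.92 in the same cells of floxed mice. The floxed osteoclast array stood apart as the lowest. Tlr2 was 1.41-fold lower in wild-type osteoclasts than in macrophages and 3.10-fold lower in floxed cells, and in osteoclasts it was 1.88-fold lower in floxed than in wild-type cells.

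Tlr4, the receptor for lipopolysaccharide, had a signal of 1.74 in macrophages and 0.90 in osteoclasts of the wild type, against 1.87 and 0.44 in floxed macrophages and osteoclasts. The macrophage arrays lay within 0.13 of each other and above the osteoclast arrays. Tlr4 was 1.80-fold lower in wild-type and 2.70-fold lower in floxed osteoclasts by its brightest probe. Its other, dimmer probe gave -1.21 in the wild type and -0.09 in floxed cells, and opposite signs between genotypes (-0.74 in macrophages and 0.39 in osteoclasts). The Tlr4 call in floxed cells thus rests on 1 probe.

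Tlr5, the receptor for flagellin, had a signal of -2.11 and -2.53 in wild-type macrophages and osteoclasts, and -2.35 and -3.24 in their floxed counterparts. All 4 values were well above background. No comparison of Tlr5 reached 2-fold, the largest being 1.86-fold lower in floxed osteoclasts than in macrophages.

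Among endosomal receptors, Tlr13, a mouse receptor for bacterial ribosomal RNA, had a signal of 6.35 in macrophages and 4.57 in osteoclasts of wild-type mice, and of 5.84 and 3.54 in the same cells of floxed mice. Both macrophage arrays stood above both osteoclast arrays. Tlr13 was 3.42-fold lower in wild-type and 4.92-fold lower in floxed osteoclasts than in macrophages, and its other probe gave -1.79 and -2.68. Between genotypes it was 1.43-fold lower in floxed macrophages and 2.05-fold lower in floxed osteoclasts. The other probe gave 0.07 and -0.83 for the same comparisons, so only the osteoclast difference had the same sign with both.

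Tlr7, a receptor for single-stranded RNA, had a signal of 2.40 in macrophages and 1.28 in osteoclasts of the wild type, against 3.62 and 0.98 in floxed macrophages and osteoclasts. Floxed macrophages stood highest, and the osteoclast arrays lay within 0.29 of each other. Tlr7 was 2.34-fold higher in floxed than in wild-type macrophages, and it was 2.18-fold lower in wild-type and 6.24-fold lower in floxed osteoclasts than in macrophages. The next probe gave 0.78 between macrophages of both genotypes, and -0.88 and -2.23 between cell types, so the wild-type and genotype calls were not reached with it. The third Tlr7 probe was well above background only in floxed macrophages, at -4.95.

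Tlr8, which lies beside Tlr7 on chromosome X with 0 protein-coding genes between them, had a signal of -2.22 in wild-type macrophages and -1.63 in floxed macrophages. In osteoclasts it was not well above background in either genotype, with measured values of -4.89 in the wild type and -5.89 in floxed cells. Against the higher of that value and the lowest signal well above background on the array, Tlr8 was at least 6.33-fold lower in wild-type and at least 14.6-fold lower in floxed osteoclasts. With the normexp background correction these bounds shrank from -2.66 and -3.87 to -1.07 and -2.14 on the log2 scale. Tlr8 was 1.51-fold higher in floxed than in wild-type macrophages, and no genotype difference is given for osteoclasts.

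Tlr3, the receptor for double-stranded RNA, was dim, with -2.44 and -3.84 in wild-type macrophages and osteoclasts, and -2.46 and -4.72 in their floxed counterparts. The macrophage arrays were alike within 0.02, and both osteoclast arrays lay lower. Tlr3 was 2.63-fold lower in wild-type and 4.77-fold lower in floxed osteoclasts, and its other probe gave -1.49 and -1.82. With normexp the floxed difference was -1.24 in place of -2.26. The difference of -0.88 between genotypes in osteoclasts was 0.07 with that probe.

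Tlr9, the receptor for unmethylated CpG DNA, was the receptor that varied least, with 1.21 in macrophages and 1.04 in osteoclasts of wild-type mice, and 1.44 and 0.98 in the same cells of floxed mice. The 4 values spanned 0.45, and its order of arrays is within the gap seen between probes of a gene apart from floxed macrophages against osteoclasts. It was 1.12-fold lower in wild-type and 1.37-fold lower in floxed osteoclasts.

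Tlr11 and Tlr12, the remaining mouse receptors of the family, were not well above background on any array. Their signals ran from -6.92 to -6.70 for Tlr11 and from -7.89 to -7.21 for Tlr12.

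Surface and endosomal receptors were set side by side in each comparison. In the wild type the 5 surface receptors had a median difference of -0.85 between osteoclasts and macrophages, with 1 past 2-fold, and the 5 endosomal receptors -1.40, with 4 past 2-fold. In floxed cells the medians were -1.63 and -2.30, with 4 past 2-fold in each class. Over all genes measured, 7.32% were at least 2-fold lower in the wild type and 12.2% in floxed cells, with medians of 0.00 and -0.02. The ranges overlapped, since the surface class ran from -2.00 to -0.42 and the endosomal class from -2.66 to -0.17 in the wild type, with Tlr9 above all surface receptors. The wild-type counts rest on values near the criterion, with Tlr6 at -0.99 and Tlr7 at -1.12, or -0.88 by its next probe. With normexp Tlr3 (-0.88) and Tlr7 fell short of 2-fold in the wild type, and so did the endosomal median. Endosomal values include the bound of Tlr8. The difference between the classes was not tested.

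**Figure D2:**
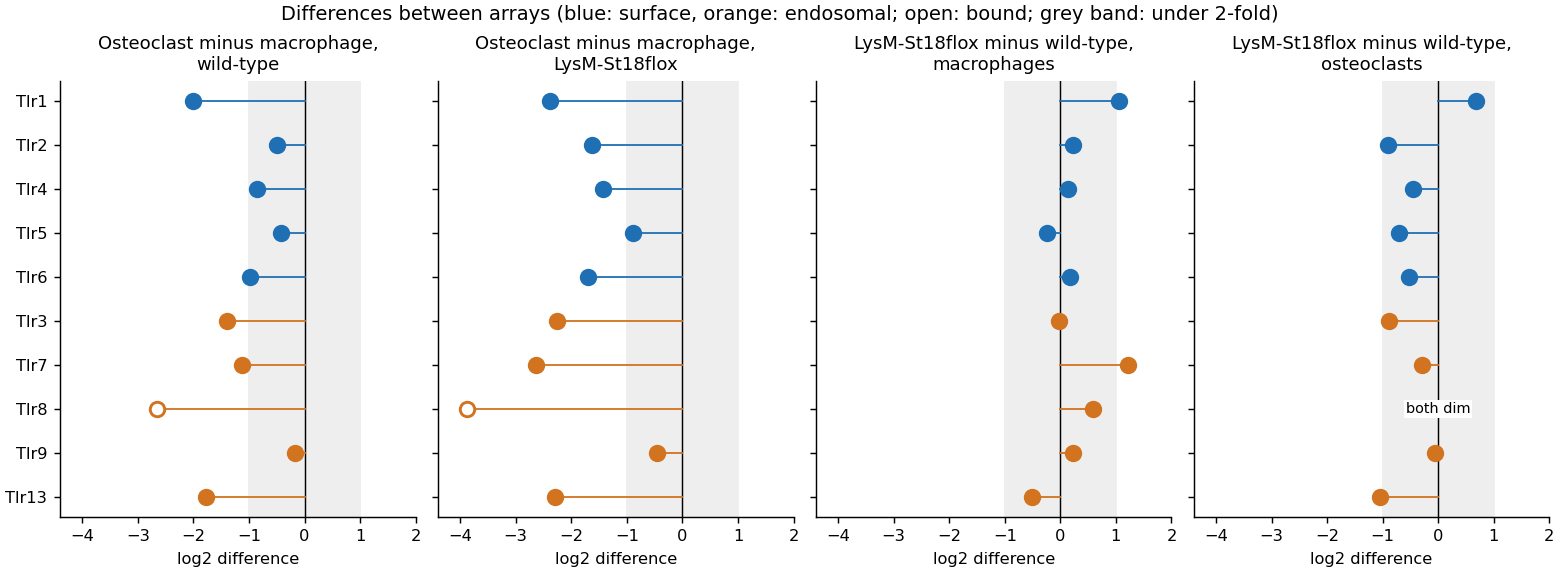
Log2 differences (horizontal axis) of the 10 receptors in the 4 comparisons, with surface receptors in blue and endosomal receptors in orange. Open points are bounds, and the grey band holds differences under 2-fold. All points lie left of 0 between cell types, 5 of them outside the band in the wild type and 8 in floxed cells, while between genotypes 2 points lie outside it in macrophages and 1 in osteoclasts.

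Between genotypes fewer receptors passed 2-fold than between cell types. In macrophages Tlr1 and Tlr7 were at least 2-fold higher in floxed cells and none was 2-fold lower. Of 15160 genes measured there, 6.31% met the criterion, 3.3% upwards and 3.01% downwards. The class medians were 0.17 for surface and 0.23 for endosomal receptors, and -0.02 over all genes. In osteoclasts Tlr13 was the only 1 of 9 receptors past 2-fold, and it was lower. Of 14615 genes measured there, 7.75% met the criterion, 3.93% downwards and 3.82% upwards. Surface receptors had a median of -0.53 and endosomal receptors, without Tlr8, -0.59, against 0.00 over all genes. By the brightest probes 8 of the 9 receptors lay below 0, as did 7362 of the 14615 genes. Of these 8 receptors, Tlr9 was at only -0.06, and the other probes of Tlr3 and Tlr4 gave 0.07 and 0.39. Tlr13 was at -1.04, and it fell short of 2-fold at -0.93 with the median over its probes and also with arrays centred on their medians. The split of all genes in this comparison, 558 higher and 575 lower, was 646 and 393 with quantile normalization and 432 and 263 with the authors' values. Beside these receptor values, 5 of 7 osteoclast markers were at least 2-fold higher in floxed than in wild-type osteoclasts, with a median of 1.18, and of 6 macrophage markers none passed 2-fold, with a median of -0.07. In macrophages 1 of 6 macrophage markers was at least 2-fold higher, Mertk at 1.66, with a median of 0.03. Of 6 measured osteoclast markers 2 were at least 2-fold lower in floxed macrophages, Dcstamp at -1.81 and Ocstamp at -1.01, with a median of -0.39. Of 5 measured conventional dendritic cell markers 1 was at least 2-fold higher and 1 lower, both as bounds. Of 4 measured B cell markers 1 was lower, Ms4a1 at -1.08. In the same comparison 2 of 5 measured plasmacytoid dendritic cell markers were at least 2-fold higher in floxed macrophages, Cox6a2 at 1.35 and Klk1 just past it as a bound, with a median of 0.67, while Siglech was at -0.70. Of 6 neutrophil markers 5 were above 0 and none passed 2-fold, with a median of 0.52. Their part in the receptor differences was not tested. The comparisons share arrays with each other, so a low or high value of 1 array enters 2 of them.

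The response of the 9 receptors well above background on all 4 arrays, meaning the osteoclast signal minus the macrophage signal, had a median gap of -0.58 between floxed and wild-type cells. By the brightest probes all 9 gaps were below 0, but those of Tlr1 and Tlr9 were smaller than the median gap of 0.40 between probes of a receptor. The gap was largest for Tlr7 (-1.52, 2.87-fold) and Tlr2 (-1.13, 2.19-fold), the 2 receptors past 2-fold. For Tlr3 it was -0.86, for Tlr6 -0.70, for Tlr4 -0.58, for Tlr13 -0.53, for Tlr5 -0.47, for Tlr1 -0.39 and for Tlr9 -0.29. With the median over a gene's probes the gap of Tlr4 turned to 0.27. The other Tlr4 probe alone had responses of -1.21 in the wild type and -0.09 in floxed cells, so the probes disagree on the sign of this gap. By the gap between responses, 4.7% of 13671 genes were at least 2-fold lower in floxed cells. Among the 6811 genes with a mean response at or below 0, 67.6% had the lower response in floxed cells, with a median gap of -0.16, against 9 of 9 receptors and a median of -0.58. Among the 1212 genes whose mean response was at least 2-fold downwards, 84.0% had the lower response in floxed cells, with a median gap of -0.58, and among the 7 receptors in this class the median was -0.70.

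**Figure D3:**
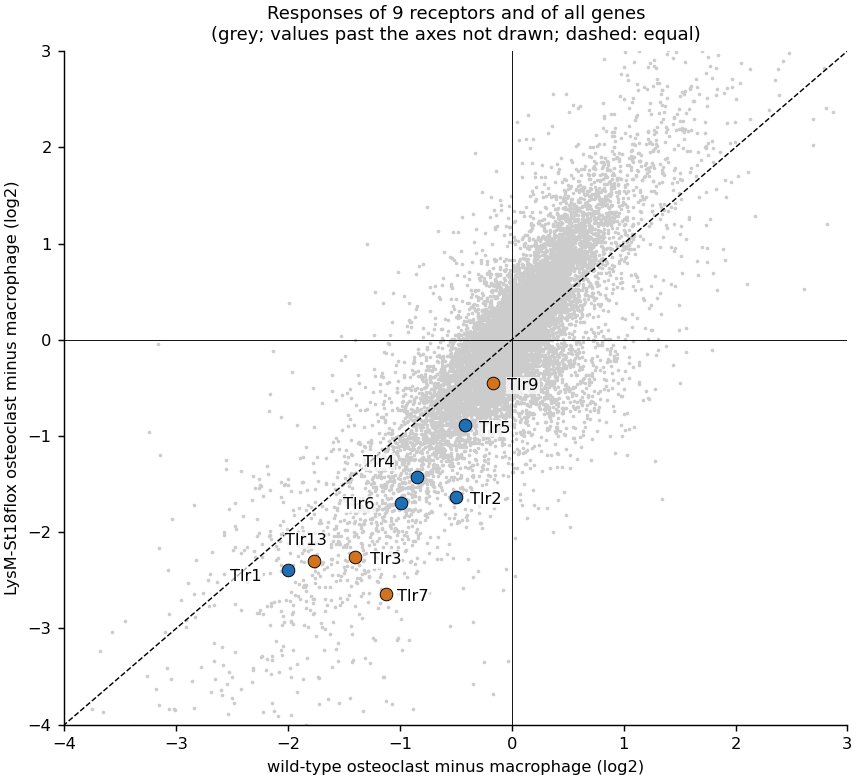
Response of each gene in the wild type (horizontal axis, log2) and in floxed cells (vertical axis, log2), with 9 receptors labelled (surface blue, endosomal orange) over other genes well above background on the 4 arrays (grey; genes past the axes are not drawn). The dashed line marks equal responses. All 9 receptors lie below it, with Tlr7 (-1.12 and -2.64) farthest and Tlr9 (-0.17 and -0.45) nearest.

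The other probe of 5 receptors gave the same sign as the brightest probe in 15 of 20 values, and the 5 exceptions were all differences between genotypes. The gap between probes reached 1.34 for Tlr4 between floxed cell types, where the other probe was at only -0.09. For the rest it reached 0.94. The lower signal in osteoclasts had the same sign with both probes for Tlr1, Tlr3, Tlr4, Tlr7 and Tlr13 in both genotypes. The probes share the RNA of the array, so this covers the probe and not the culture.

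**Figure D4:**
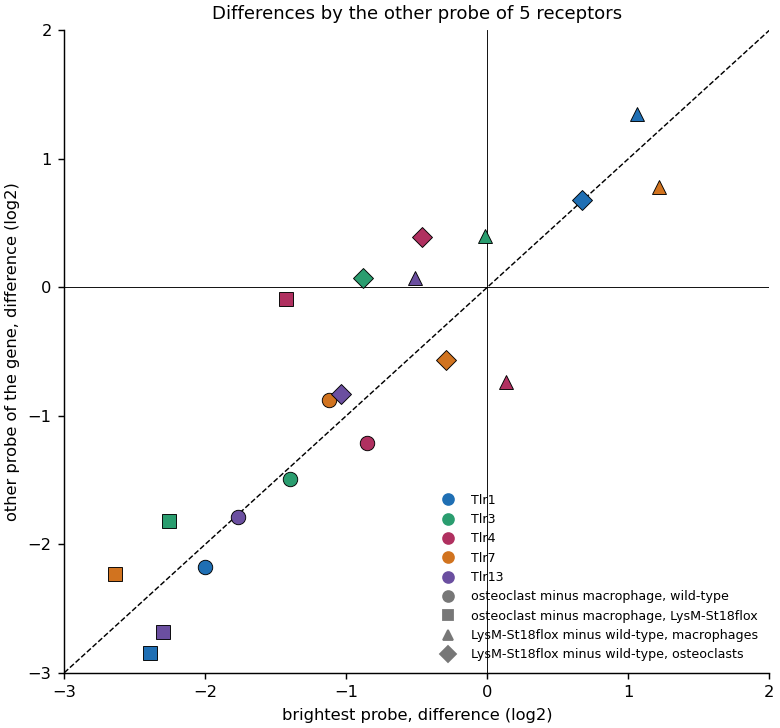
Difference by the other probe (vertical axis, log2) against that by the brightest probe (horizontal axis, log2) for Tlr1, Tlr3, Tlr4, Tlr7 and Tlr13 (colours) in the 4 comparisons (symbols). Points on the dashed line are equal by both probes. Circles and squares, the differences between cell types, all lie below 0 on both axes, and the square of Tlr4 (-1.43 and -0.09) lies farthest from the line.

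Beyond the receptors, lists of pathway genes were counted by the same criterion. Beside the counts of every list stand the shares of all genes measured. In the wild type 7.32% of these were at least 2-fold lower and 5.7% higher. In floxed cells 12.2% were lower and 11.0% higher, so counts were larger there over all genes too. Of 6 co-receptors, 3 were at least 2-fold lower in osteoclasts of the wild type and 4 in those of floxed mice, with medians of -0.97 and -1.30. Ly86, which encodes MD-1, the partner of the receptor-like protein Cd180, differed by -2.84 in wild-type and by -4.21 in floxed cells. Cd36, a scavenger receptor that helps present lipopeptides to Tlr2, was at -1.96 and -2.76, and Cd14, which hands lipopolysaccharide to Tlr4, at -0.67 and -1.13. Lbp, the lipopolysaccharide binding protein, was not well above background in osteoclasts and had bounds of -1.27 and -1.48. Ly96, which encodes MD-2, the subunit of the Tlr4 complex that binds lipid A, is named for its role with its values known, and it was at 0.40 and -0.21.

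Genes that fold, transport and process the receptors had medians of -0.43 and -0.64 over the 18 measured of a list of 19. In the wild type 4 were at least 2-fold lower and in floxed cells 5, and Ctsk, a protease that is also the main osteoclast marker, was the only 1 higher (7.69 and 8.35). The lower genes included Slc15a3, an endolysosomal peptide transporter (-1.86 and -2.18), Pld4, an exonuclease that degrades ligands of nucleic acid sensors (-1.53 and -2.50), Nrros (-1.56 and -1.43) and Lgmn, an endosomal protease that cleaves receptors (-1.38 and -2.04). Unc93b1, named for its role with its values known, differed by -0.69 in wild-type and by -1.53 in floxed cells.

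Adaptors, kinases, transcription factors and inhibitors had medians nearer 0 than the receptor classes. Adaptors had medians of -0.34 and 0.14 over 6 genes. Among these, Myd88 was at -0.47 and -0.48, and Ticam2, the bridge from Tlr4 to Ticam1, had a bound of -1.16 in the wild type and was at -1.73 in floxed cells, where Sarm1 was at 1.27. The 18 kinases and ubiquitin ligases had medians of 0.07 and 0.13, with 1 higher and 1 lower in the wild type and 1 higher and 2 lower in floxed cells. Traf3, an adaptor ligase that restrains alternative NF-kappaB signalling, was at 1.27 and 1.29, and Ikbke, a kinase that activates interferon regulatory factors, at -1.46 and -2.66. Map3k8, which links the receptors to the ERK pathway, was at -1.40 in floxed cells. The 6 transcription factors had medians of -0.06 and -0.10, and only Irf7, which drives interferon genes after Tlr7 and Tlr9, passed 2-fold (-1.89 and -1.58).

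Inhibitors of the pathway moved both ways, with 2 higher and 3 lower of 14 in the wild type and 2 higher and 5 lower in floxed cells, and medians of -0.02 and -0.16. Over all genes measured, 5.7% were higher and 7.32% lower in the wild type, and 11.0% and 12.2% in floxed cells. Tnfaip3, the ubiquitin-editing enzyme A20, was at 1.07 and 1.80. Irak3, an inactive kinase that blocks Myd88 signalling, was at -1.13 and -1.79, Il1rl1, the interleukin-33 receptor, at -1.69 and -1.99, and Trafd1 at -1.05 and -1.46. Of 11 cytosolic and other sensors of microbes, 4 were at least 2-fold lower in the wild type and 6 in floxed cells, none was higher, and the medians were -0.86 and -1.51. Sting1, which relays cytosolic DNA signals, was at -1.64 and -2.02, Nod1, a peptidoglycan sensor, at -1.20 and -2.21, and the RNA helicases Ifih1 and Dhx58 were each at -1.66 in floxed cells. Nlrp3, the inflammasome sensor, was at -0.91 and -1.76.

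Of 11 response genes that Toll-like receptors are known to induce, 8 were measured and 5 were at least 2-fold lower in each genotype, with medians of -1.17 and -1.63. Cd40, a costimulatory receptor, was at -2.16 and -2.42, the chemokine gene Cxcl2 at -1.96 and -2.34, Ccl3 at -1.09 and -2.05, and Tnf at -1.25 and -1.22. Il1b had a bound of -1.30 in the wild type and was at -2.37 in floxed cells. Il6, Il12b and Ifnb1 were not well above background on any array, and no microbial ligand is named in the labels. Between genotypes, 6.31% of all genes measured in macrophages and 7.75% of those measured in osteoclasts passed 2-fold. Some pathway genes beyond the receptors did so too. In macrophages these were Ly86 (1.26), Ticam2 (1.32), Map3k8 (1.09) and Ptgs2, the inducible cyclooxygenase (-2.15), and in osteoclasts Ccl3 (-1.04).

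**Figure D5:**
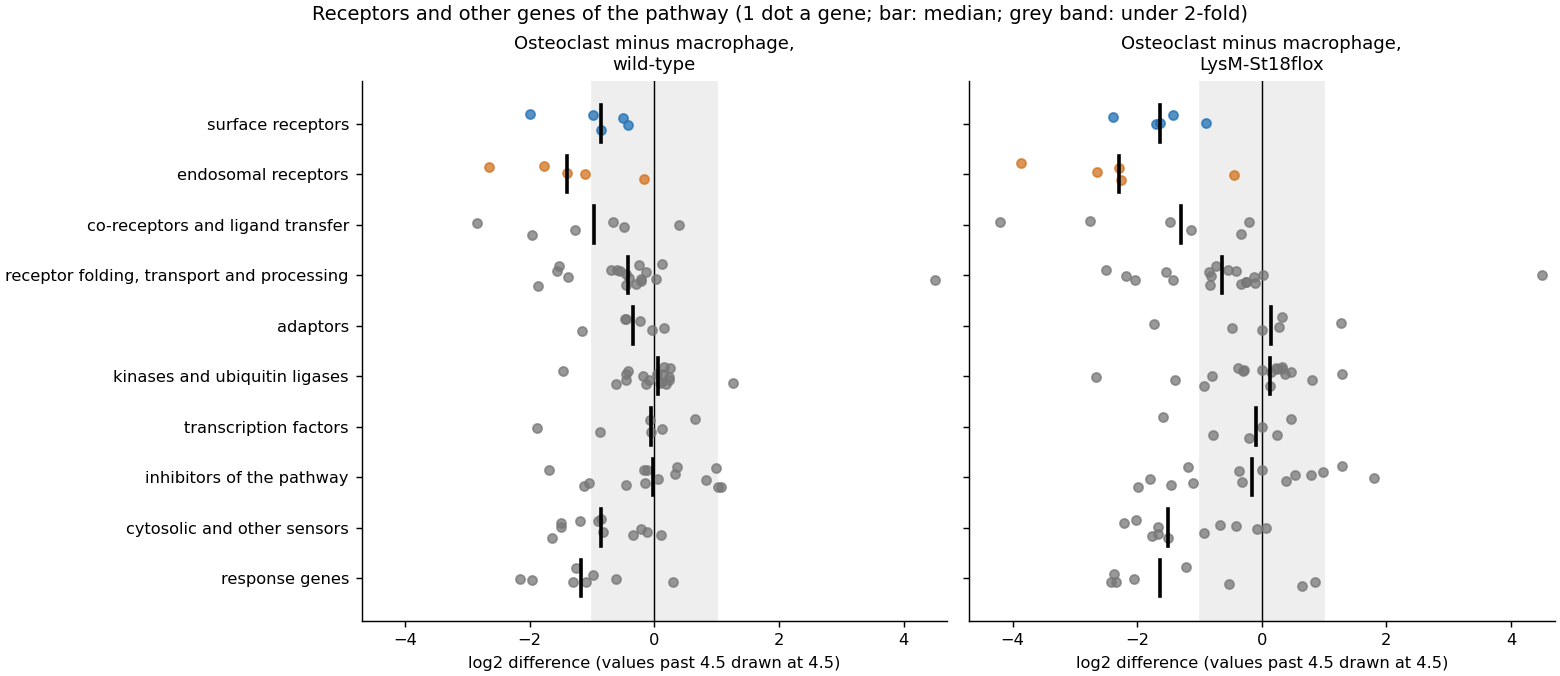
Log2 difference between osteoclasts and macrophages (horizontal axis, with values past 4.5 drawn at 4.5) of each measured gene of the receptor classes and of 8 pathway lists, in the wild type (left) and in floxed cells (right). Each dot is a gene, the black bar is the median of the list and the grey band holds differences under 2-fold. Medians of both receptor classes, co-receptors, sensors and response genes lie lower (-0.85 to -1.40 on the left) than those of adaptors, kinases, transcription factors and inhibitors (-0.34 to 0.07).

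Markers of several cell types differed between the same arrays as the receptors. In these bulk samples, fewer cells of a type and less RNA per cell cannot be told apart. The summed signal of the 6 macrophage markers was 762 and 692 in wild-type and floxed macrophages and 465 and 507 in the osteoclasts, 1.64-fold and 1.36-fold lower. Taken gene by gene, 2 of the 6 were at least 2-fold lower in the wild type, with a median of -0.95. In floxed cells 3 of the 6 were, with a median of -1.07. Over all genes measured, 7.32% were at least 2-fold lower in the wild type and 12.2% in floxed cells. Differences of single macrophage markers ran from Itgam at 0.10 in the wild type to Fcgr1 at -4.30, and in floxed cells from Cd68 at -0.06 to Fcgr1 at -4.39. The summed signal of 6 measured neutrophil markers of a list of 7 was 6.04 and 7.06 in macrophages and 3.91 and 3.66 in osteoclasts, with Retnlg not well above background on either wild-type array. Most of the neutrophil sum came from Elane. The summed signal of 6 conventional dendritic cell markers was 0.636 and 1.01 in macrophages and 0.252 and 0.232 in osteoclasts. Most of the macrophage sums came from Batf3, which differed by -1.70 in wild-type and by -2.94 in floxed cells. In the wild type 2 of the markers were measured, with a median difference of -1.43. In floxed cells 5 were, with a median of -0.07 and 2 above 0. Of the 6 markers 2 and 4 were well above background in macrophages and 1 and 4 in osteoclasts. Clec9a was well above background only in floxed osteoclasts. For 5 B cell markers, of which 3 or 4 an array were well above background, the sum was 2.58 and 2.72 against 1.69 and 1.12. The defining marker Cd79a was not well above background on any array. The part of these cells in the receptor differences was not tested.

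Markers of 4 further cell types were counted in the same way. Of 6 markers of plasmacytoid dendritic cells, which are rich in Tlr7 and Tlr9, 4 or 5 were well above background, Ly6d on no array, and the sum was 176 and 120 in macrophages and 151 and 108 in osteoclasts, nearly all from Siglech. The sums were 1.51 and 1.23 in macrophages against 1.63 and 1.14 in osteoclasts for 6 stromal markers, 2 or 3 of them well above background, with Col3a1, Cxcl12 and Pdgfra dim throughout. They were 1.77 and 1.12 against 0.861 and 0.835 for 5 endothelial markers, 2 or 3 of them well above background, with Tek and Emcn dim throughout. They were 1.23 and 1.19 against 0.890 and 1.04 for 6 T and NK cell markers, 3 of them well above background, with Cd3g, Ncr1 and Klrb1c dim throughout. Most of the stromal sum came from Lepr, of the endothelial sum from Kdr and of the T and NK cell sum from Cd3e. All sums include the markers that were not well above background.

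Other genes had a similar shape over the 4 arrays as Tlr1 and Tlr13, the receptors with the widest range in each class among those well above background on all 4 arrays. Likeness was taken as the root mean square distance of log2 signals over the 4 arrays, each gene centred on its own mean, among 13670 other genes well above background on all of them. Nearest to Tlr1 were Gm12250 (0.095), Frmd4b (0.096) and Ms4a4b (0.100), and nearest to Tlr13 were Pgm2l1 (0.051), Stk26 (0.055) and Itgb5 (0.080). Over only 4 arrays such a match is a description of these arrays.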

How the data were processed

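Total RNA (100 ng) was labelled with Cy3 by the Quick Amp procedure, per the labels' protocols, and the scans were quantified with Agilent software (Feature Extraction, version 11.0.1.1, as the submitters' processing notes have it). Per the file headers, the deposited values are a processed intensity for every spot (background-subtracted and detrended within an array, unscaled between arrays), median intensities of spot and local background, and flags of other kinds. The authors also deposited log2 values for 30909 probes, with a median of 9.39 in every column and sorted columns within 0.00065, so they are levels with 1 shared distribution and not centred on 0. Against the scanner signals their lowest correlation over probes was 0.9998. How the authors made them is not stated in the labels.

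Outlying spots (80 to 126 an array) were left out. The values analysed were log2 processed signals minus the array's 75th percentile (634.9 and 769.2 for wild-type macrophages and osteoclasts, 1158.9 and 1060.1 for floxed cells). Names came from RefSeq accessions (GRCm38.p6) for 58.3% of 56575 probes. The files use the mm9 array annotation, so no gene coordinates are given, and promoter windows carry their own build. A gene is its probe of highest mean signal, measured where well above background on 1 of the arrays compared, and counted at 2-fold. With 1 dim array the difference is a bound against whichever is higher on that array, the probe's own signal or the dimmest signal still well above background. Spots of repeated probes had a median SD of 0.031 to 0.042 within arrays. No p-value was computed. The members and lists were chosen with earlier results of these data known. All members were named; from each list, up to 4 genes past 2-fold with the largest measured difference in a comparison were named, with exceptions stated. Background correction (normexp, limma 3.58.1 in R 4.3.3, offset 50), scaling, filter, probe rule and threshold were varied in 8 alternatives. 1 marker gene of the cell type lists is not reported here. The code was tested on simulated data.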

Additional observations from a re-analysis of the deposited data

Results flagged for a closer look

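The difference between genotypes had opposite signs in the cell types for Tlr2 and Tlr7, with more than 2-fold between the differences. Tlr2 was at 0.22 in macrophages and -0.91 in osteoclasts, a gap of -1.13. Tlr7 was at 1.22 in macrophages and -0.29 in osteoclasts, a gap of -1.52. The other Tlr7 probe gave 0.78 and -0.57. The smaller value of each by the brightest probes, 0.22 and -0.29, was under the median gap of 0.40 between probes. Those signs are not set apart from disagreement between probes. Tlr4 (0.13 and -0.46), Tlr6 (0.17 and -0.53) and Tlr9 (0.23 and -0.06) also had opposite signs, with under 2-fold between the differences. With 1 array a group, none of these was tested.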

How the results depend on the processing

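No paired analysis was possible because each group had 1 array, and for the same reason no array could be left out. Of 120 values for counts and class medians under the alternatives, 112 kept their side of 2-fold, or for counts stayed within 1.5 times. With the normexp correction the count of receptors at least 2-fold lower in wild-type osteoclasts was 3 in place of 5, and the endosomal median was -0.95 in place of -1.40. With the median over a gene's probes, the count higher in floxed macrophages was 1 in place of 2, without Tlr7 (0.78), and the count lower in floxed osteoclasts was 0 in place of 1. That count was also 0 with arrays centred on the median, 2 with no filter on dim probes and 4 at 1.5-fold, where 1 was higher. The share of all genes at 1.5-fold is not given here. Of 331 values of single receptors under the alternatives, none called at 2-fold changed sign. The signs of Tlr9 in the wild type (0.02 with normexp), of Tlr3 between macrophages (0.19 with the median over probes) and of Tlr4 between macrophages (-0.30 with the same) turned at small sizes, and with the median over probes the gap of Tlr4 between the responses was 0.27 in place of -0.58. Tlr4 in floxed osteoclasts was then at -0.76, and Tlr3 and Tlr7 in the wild type were at -0.88 and -0.95 with normexp, all short of 2-fold. The causes were not tested. In the comparison of osteoclasts between genotypes, 558 genes were at least 2-fold higher and 575 lower, against 646 and 393 with quantile normalization, 432 and 263 with the authors' values, 317 and 219 with normexp and 930 and 1401 with no filter. In macrophages 500 were higher and 456 lower, against 276 and 281 with normexp and 969 and 1128 with no filter. Between wild-type cells 840 were higher and 1078 lower, against 1424 and 1561 with no filter. Without the filter on dim probes the median of all genes moved by up to 0.19. All 10 receptors have a probe above background in macrophages, but Tlr8 in osteoclasts and the third Tlr7 probe are limited by signal over background.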

Other observations

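Siglech, a lectin used as a marker of plasmacytoid dendritic cells, had log2 signals of 7.36 in macrophages and 7.18 in osteoclasts of the wild type, against 6.66 and 6.68 in floxed macrophages and osteoclasts. Its difference between osteoclasts and macrophages was -0.18 in the wild type and 0.02 in floxed cells. Ly6d, another marker of that cell type, was not well above background on any array.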
